A study of Mus musculus with 12 samples.

Results

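Intronic distal intervals of the histone mark H3K27ac were analysed in the mouse mammary carcinoma cell line 4T1. An interval belonged to this class when the deposited annotation placed it in an intron, when its distance to the nearest transcription start site was over 10000 bp and when it was at least 1000 and under 20000 bp long. The rule used position and length and no measured level. It selected 15518 of 126464 intervals (12.3%); of 65075 intronic intervals, 44876 were over 10000 bp from a start site, and of these 28775 were shorter than 1000 bp and 583 were 20000 bp or longer. The cells were wild type and were cultured for 48 h with vehicle, 5 mM acetate, 50 µM etomoxir, etomoxir with acetate, etomoxir with 50 µM SB204990, or etomoxir with SB204990 and acetate, with 2 libraries a group and 12 in all. Every library held 7.5% human chromatin as a spike-in, and the deposited values are reads per interval multiplied by one spike-in factor per library (scaled reads). Both libraries of a group came from one established cell line, and no source states that they were separate cultures, so the p-values measure only the spread between these libraries. The libraries fall into 2 sets by the suffix of their titles, called set 1 and set 2 here, each with 1 library of every group; its meaning is not stated. Each set holds exactly 1 library with a spike-in factor of 1 (etomoxir + acetate in set 1, etomoxir + SB204990 in set 2), so levels of different sets may stand on different scales, and counts from a fit with the set as a block are given where they differ by over 1.5 times.

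H3K27ac is written by the acetyltransferases CBP and EP300 from acetyl-CoA, and it marks active promoters and active enhancers. Introns of long genes hold many enhancers, which act on the host gene or on a neighbour over long distances. Cells make acetyl-CoA for the nucleus from citrate through ATP citrate lyase, which SB204990 inhibits, and from acetate through ACSS enzymes. Etomoxir inhibits carnitine palmitoyltransferase and with it the entry of long-chain fatty acids into mitochondrial oxidation. The comparisons asked how the mark at these intervals changed when acetate was added and when one or both routes were inhibited.

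Sequences are shown for the intervals on which the results turn: the interval with the highest level, near Gm48913, and, among called intervals averaging 50 scaled reads or more, the first by size of change for acetate (Gm16555), etomoxir (9330188P03Rik upward) and both inhibitors (9330188P03Rik upward, Gpm6b downward). Each line gives the central 300 bases, 5′ to 3′ on the plus strand of the GRCm38 assembly, whose coordinates equal mm10. Capitals mark matches to any of 12 transcription factor motifs searched on both strands, which are an AP-1 motif (TGANTCA) in 2 of these windows and an E-box (CAGGTG) in the Gpm6b window.
Gm48913, chr15:50924154-50924453: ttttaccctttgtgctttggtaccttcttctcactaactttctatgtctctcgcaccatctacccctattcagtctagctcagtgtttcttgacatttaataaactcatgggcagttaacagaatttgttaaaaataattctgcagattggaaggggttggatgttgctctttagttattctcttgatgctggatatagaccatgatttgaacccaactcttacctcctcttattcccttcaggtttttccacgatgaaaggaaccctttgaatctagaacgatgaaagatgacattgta
Gm16555, chr17:49772312-49772611: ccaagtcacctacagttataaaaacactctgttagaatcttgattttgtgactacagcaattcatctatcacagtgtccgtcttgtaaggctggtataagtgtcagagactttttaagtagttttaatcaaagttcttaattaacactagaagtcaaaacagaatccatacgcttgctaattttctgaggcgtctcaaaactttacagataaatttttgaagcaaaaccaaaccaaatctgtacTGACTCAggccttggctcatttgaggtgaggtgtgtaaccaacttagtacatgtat
9330188P03Rik, chr14:105615481-105615780: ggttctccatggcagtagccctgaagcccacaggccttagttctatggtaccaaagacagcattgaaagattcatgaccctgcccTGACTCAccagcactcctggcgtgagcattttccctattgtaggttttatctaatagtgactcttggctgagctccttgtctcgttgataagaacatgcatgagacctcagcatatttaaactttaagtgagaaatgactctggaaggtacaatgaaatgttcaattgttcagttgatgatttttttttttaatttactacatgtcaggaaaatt
Gpm6b, chrX:166301859-166302158: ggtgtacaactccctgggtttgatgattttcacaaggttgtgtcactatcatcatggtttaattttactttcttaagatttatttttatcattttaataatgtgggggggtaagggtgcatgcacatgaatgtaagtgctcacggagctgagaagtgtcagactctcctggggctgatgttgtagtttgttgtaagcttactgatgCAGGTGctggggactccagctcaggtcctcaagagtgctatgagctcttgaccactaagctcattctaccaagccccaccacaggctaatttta

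The intervals were of moderate size and lay far from start sites. Their median length was 2359 bp (quartiles 1440 and 4689 bp), and their median distance to the nearest start site was 31123 bp, with the farthest at 1150793 bp. Of the 15518, 5270 (34.0%) lay in intron 1 of their host gene, against 36.4% of all intronic intervals. The host gene was protein coding in 92.0%, while the nearest gene was protein coding in 71.1% and a long noncoding RNA in 28.8%. Host and nearest gene were the same in 59.4%, so a symbol given below names the nearest gene and the host is stated where it differs. By the GENCODE M21 annotation 1120 intervals (7.22%) overlapped the start of a protein-coding transcript although the deposited distance was over 10000 bp. Among the intervals named below these are the ones at Aplp2, Ppp1r12a, Tmem71, Gm20420, Gm48646, Etv1, Itga2, Acvr1, Cnn3, Vgll4, Etv5, Hdac1, Hdac2, Met and Acaa2, whose levels are those of a start site and an intron together.

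Long genes carried many separate intervals. The 15518 lay in 5148 host genes, of which 2275 held 1 interval and 249 held 10 or more, and those 249 genes held 24.1% of the intervals. Nav2, which encodes a neuron navigator protein, hosted 39, Mast4 and Farp1 33 each, and Rad51b 32. Prkca, the gene of protein kinase C alpha, hosted 31 and Ank3, the gene of ankyrin-G, 29. Counted by nearest gene, Rad51b and Nav2 had 27 each, Ank3 and Sipa1l1 24 each, Stk39 and Igf1r 22 each, and Mast4 21. The levels within a gene were uneven. The 32 intervals in Rad51b had mean scaled reads from 16.2 to 1309 with a median of 36.9, and the 39 in Nav2 from 14.9 to 693 with a median of 36.3.

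Base composition set the class apart from promoters more than from intergenic intervals chosen by the same length and distance. In the central 1000 bases the median GC content was 45.5% in intronic distal intervals, 44.9% in 9805 intergenic distal intervals and 52.5% in 4633 promoter intervals of at least 1000 bp. The median ratio of observed to expected CpG dinucleotides in that window was 0.200, 0.179 and 0.401, and 1.92%, 1.18% and 35.2% of the windows had a ratio of observed to expected CpG over 0.6. An AP-1 motif, the site of FOS and JUN dimers, was found in 38.4% of intronic distal windows, 48.6% of intergenic and 24.3% of promoter windows. A TEAD motif (GGAATG), the site of the factors that YAP and TAZ bind, was found in 45.2%, 50.4% and 40.1%. The SP/KLF motif (GGGCGGG) went the other way, at 8.1%, 7.1% and 37.1%, as did the ETS motif (CCGGAAG) at 4.2%, 4.6% and 16.5%. In the same order of classes, the E-box (CAGGTG) 53.1%, 50.2% and 57%, RUNX (TGTGGTT) 24.2%, 23.3% and 16.7% and forkhead (TGTTTAC) 14.3%, 14.5% and 10.4% of windows held a match. The remaining motifs were the PPAR:RXR direct repeat (GGTCANAGG) 6.46%, 6.37% and 5.68%, CTCF (AGGGGGC) 10.6%, 10.4% and 23.1%, NFY (CCAATNAG) 9.51%, 11.4% and 11.4%, NRF1 (GCGCATGC) 1.73%, 1.59% and 4.27%, and C/EBP (TTGCGCAA) 0.14%, 0.20% and 0.43%. Among intronic distal intervals split into 4 equal parts by scaled reads per kb, the AP-1 share was 33.5%, 36.6%, 41.1% and 42.3% from the weakest to the strongest part, and the TEAD share 43.8%, 46.1%, 46.2% and 44.7%. A match is a run of letters in the window and not a measured binding site.

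**Figure D1:**
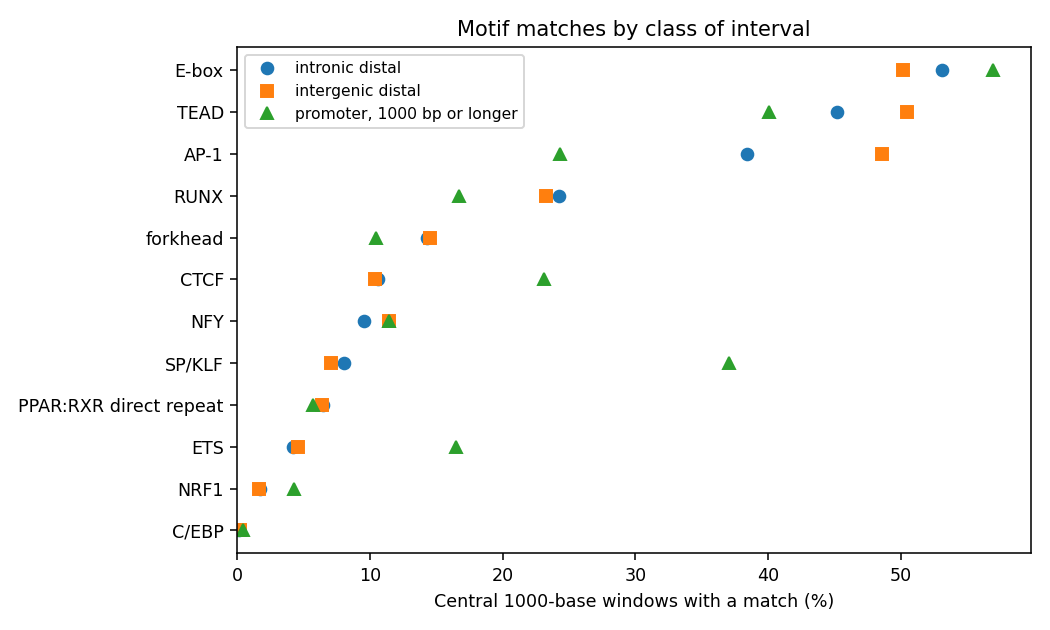
Share of central 1000-base windows (x axis, percent) that hold at least 1 match to each of 12 motifs (y axis), on either strand, in intronic distal, intergenic distal and promoter intervals. AP-1 matches were in 38.4% of intronic distal windows, between the 48.6% of intergenic and the 24.3% of promoter windows, and SP/KLF matches in 8.1% against 37.1% of promoter windows.

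The mean over 12 libraries had a median of 38.4 scaled reads an interval and 16.7 scaled reads per kb, against 19.7 per kb in 8169 promoter intervals, 17.9 per kb in 9816 intergenic distal intervals and 16.4 per kb over all intervals. In intervals of 20000 bp or longer the median per library was 25.8 to 64.5 scaled reads per kb, against 8.47 to 28.0 in intronic distal intervals. Library depth was 7179165 to 16676442 reads in intervals (median 13447278), and intronic distal intervals took 15.03% to 16.4% of them in every library. Between 1 and 3 of the 15518 were at 0 in a library. The second etomoxir + SB204990 library stood apart, with the fewest reads and 2.77% of them in the weakest of 4 equal parts of all intervals, where the 12 libraries had a median of 1.24%. As a check of the cell type, 13 of 20 genes that mark mammary carcinoma epithelium had at least 100 mean scaled reads over their start, against 2 of 12 leukocyte, 1 of 7 endothelial, 1 of 8 fibroblast, 0 of 6 adipocyte and 0 of 7 neuron and glia genes. The edges of the rule were smooth: intervals from 1000 to under 1100 bp long had a median of 14.5 scaled reads per kb and those from 900 to under 1000 bp 14.1, those from 18000 to under 20000 bp 34.2 and those from 20000 to under 22000 bp 37.2, and intervals over 10000 and up to 11000 bp from a start site had 16.8 and those over 9000 and up to 10000 bp 16.997.

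The 8 intervals with the highest level per kb were from 3595 to 19100 bp long. The interval near the noncoding RNA Gm48913 (chr15:50914754-50933853), in intron 3 of that RNA, had the highest level per interval and per kb. It held 2503 and 1802 scaled reads in vehicle, 3193 and 2089 in acetate, 2577 and 3332 in etomoxir, 2940 and 3041 in etomoxir + acetate, 2006 and 1401 in etomoxir + SB204990, and 2018 and 3031 in etomoxir + SB204990 + acetate. Acetate overlapped with vehicle, and the nearest coding start, 24291 bp away, was that of Trps1, a GATA-type repressor. Next per kb was the interval 26613 bp upstream of Has2, the gene of hyaluronan synthase, in an intron of its antisense transcript Has2os (chr15:56715101-56727203). It held 1271 and 1253 scaled reads in vehicle, 1840.5 and 1617 in acetate, 1239 and 1300.5 in etomoxir, 2002 and 2090.0 in etomoxir + acetate, 833 and 1007 in etomoxir + SB204990, and 1263 and 1846 in etomoxir + SB204990 + acetate, so both libraries of each acetate group lay above both of the same group without acetate. Aplp2, which encodes an amyloid precursor-like protein, had 114.3 mean scaled reads per kb (chr9:31196345-31214594). Further intervals among the highest per kb were Gm49498 in D030024E09Rik with 109.7, 419369 bp from the start of Myc, Tmem71 in Phf20l1 with 109.6, Gm20420 in the phospholipase gene Pla2g6 with 99.3, Ptrh2 in Vmp1 with 97.3, and Ppp1r12a, a regulatory subunit of myosin phosphatase, with 96.6. By scaled reads an interval, Gm48646 in Anln, which encodes the cytokinesis protein anillin, had 1851, Etv1, an ETS factor, 1345, and Rad51b 1309.

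Levels per kb differed between chromosomes. Chromosome 15 held 5 of the 8 intervals with the highest level per kb, 20 of the highest 100, and 47 of 385 intervals with at least 50 scaled reads per kb. Its median was 19.1 per kb, the highest of 20 chromosomes, against 18.6 on chromosome 8, 18.5 on chromosome 19 and 10.8 on the X chromosome, the lowest. Intergenic distal intervals had their highest and lowest medians on the same 2 chromosomes, at 23.7 per kb on chromosome 15 and 11.1 on the X chromosome. No input libraries were analysed here, so the number of chromosome copies and the level of the mark per copy cannot be told apart.

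**Figure D2:**
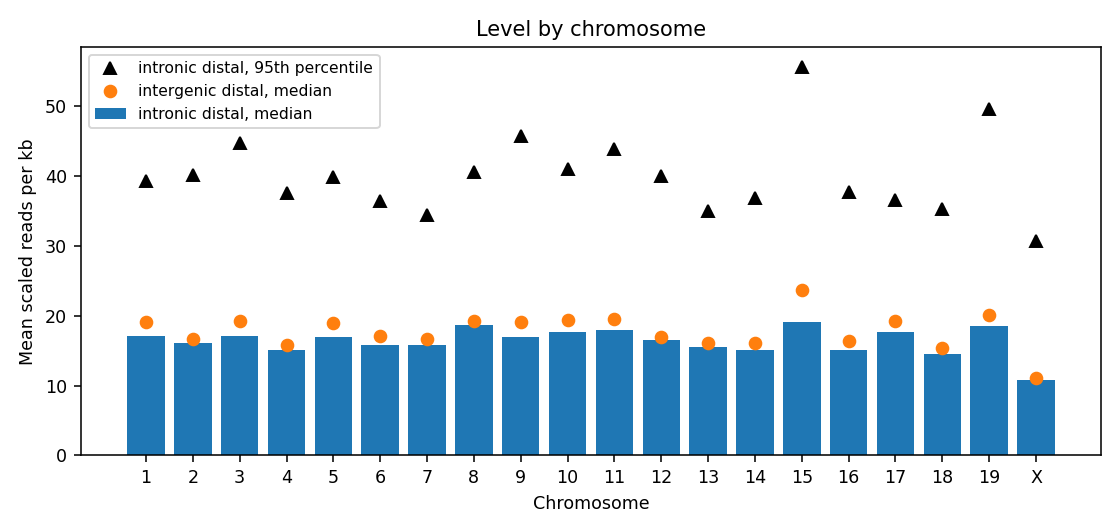
Mean scaled reads per kb (y axis) of intronic distal intervals on each chromosome (x axis), as the median (bars) and the 95th percentile (triangles), with the median of intergenic distal intervals (circles). Chromosome 15 has the highest bar, 19.1, and the X chromosome the lowest, 10.8, and the intergenic medians are highest and lowest on the same chromosomes.

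Acetate raised the summed level in every background. The summed scaled reads of the 15518 intervals were 1039610.0 and 1208343 in vehicle, 1543276 and 1576949.7 in acetate, 1269134 and 1222601 in etomoxir, 2213078 and 2079632 in etomoxir + acetate, 804469 and 1180859 in etomoxir + SB204990, and 1340499 and 1740149 in etomoxir + SB204990 + acetate. Within each background both acetate libraries were above both libraries without it. In all 6 pairs of the same set the acetate library was higher, by 1.39-fold over vehicle, 1.72-fold over etomoxir and 1.57-fold over etomoxir + SB204990 on average. The mean log2 difference was 0.64 (lowest pair 0.38, highest 0.80), with a two-sided exact permutation p of 0.00926, the smallest that the design allows. When each library was first brought to its share of reads and then multiplied by the spike-in factor, the difference was 0.43 with a two-sided exact permutation p of 0.130, which ends the call. The share of all reads that fell in these intervals stayed between 15.03% and 16.4%, so the change was in the scaled level and not in the share of the library.

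**Figure D3:**
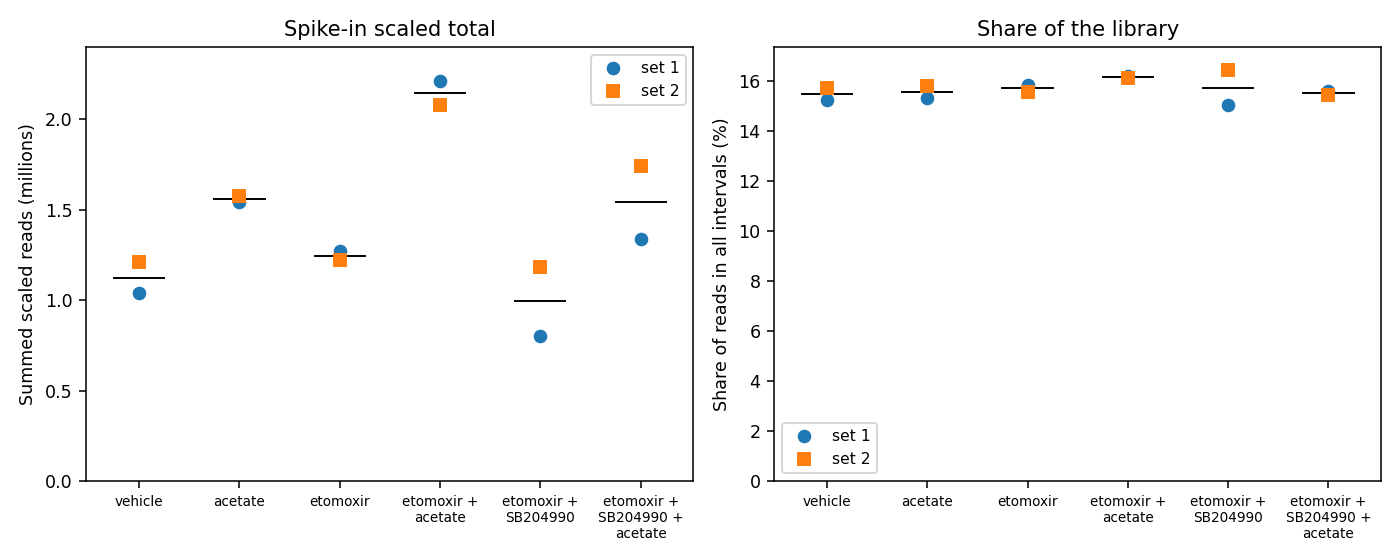
Left, summed scaled reads of the 15518 intronic distal intervals (y axis) by treatment; right, their share of the reads in all intervals (y axis, percent). Circles are set 1, squares set 2 and lines group means (n = 2); in each background both acetate libraries lie above both libraries without acetate on the left, while every library lies between 15.03% and 16.4% on the right.

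The summed level was compared with that of promoters for acetate, etomoxir and both inhibitors and with that of intergenic distal intervals for acetate, and none of the 4 passed its test. The ratio of their summed level to that of promoters was 1.53 to 1.89 over the libraries (median 1.69), and its ratio to intergenic distal intervals 1.40 to 1.498 (median 1.44). With acetate the log2 ratio to promoters differed by 0.028 (pairs from -0.19 to 0.14) with a two-sided exact permutation p of 0.620, and that to intergenic intervals by 0.010 (pairs from -0.0065 to 0.028) with a two-sided exact permutation p of 0.269. The ratio to promoters differed by 0.043 with etomoxir (exact permutation p = 0.389, two-sided) and by 0.021 with both inhibitors (exact permutation p = 0.778, two-sided). For the inhibitors the smallest possible p is 0.0556. As a median over intervals the differences from promoters turned to -0.031 with acetate and -0.019 with both inhibitors. They also turned to -0.022 with acetate without the first etomoxir + SB204990 library, and with both inhibitors to -0.055 without the second, -0.0098 without the first vehicle and -0.0074 without the first acetate library. A p above the threshold does not show that the classes changed alike. The ratio to intergenic intervals was 1.44 to 1.498 in the 8 libraries with etomoxir and 1.40 to 1.43 in the 4 without it, which do not overlap; this split was chosen after its values were seen and was not tested.

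Single intervals were tested with limma on log2(scaled reads + 1) in 1 fit over the 6 groups, among 63903 intervals averaging 10 scaled reads or more, of which 15326 were intronic distal and 192 intronic distal intervals were below the limit. Calls were made where p, adjusted by Benjamini-Hochberg over all 63903, was under 0.05. Averaged over the 3 backgrounds, acetate raised 12724 of 15326 intronic distal intervals (83.0%) and lowered 0, against 77.2% called over all intervals. Their median log2 fold change was 0.64, equal to the 0.64 over all intervals, and 99.9% were above 0. Taken background by background, 13 were called higher over vehicle (0.0848%, against 0.0955% of all intervals), 9491 over etomoxir (61.9%, against 56.4%) and 4139 over etomoxir + SB204990 (27.01%, against 27.4%). The median changes were 0.48, 0.84 and 0.61, and 97.3% of intronic distal intervals were above 0 over vehicle, where few were called. After median-of-ratios scaling, which sets the typical interval to no change, 51.1% were above 0 for the average effect and 47.8% over vehicle. The difference between backgrounds was tested by interaction terms in limma, and no intronic distal interval was called either for acetate with etomoxir (0% of all intervals, 251 intronic distal at an unadjusted p under 0.05) or for acetate with both inhibitors (0.00156% of all intervals, 26 unadjusted). These calls depended on the scaling. With read shares multiplied by the spike-in factor the median over intronic distal intervals was 0.44 and 0 were called for the average effect (697 unadjusted) and 0 over vehicle (0 unadjusted). After median-of-ratios scaling the median over intronic distal intervals was 0.0044 and 0 were called for the average acetate effect (0.00156% of all intervals, 1260 unadjusted) and 0 for acetate over vehicle (0% of all intervals, 523 unadjusted). The 13 calls over vehicle became 0 without any 1 of the vehicle, acetate, etomoxir or etomoxir + acetate libraries, 3431 and 3450 without the first or second etomoxir + SB204990 library (in the latter case 21.2% of all intervals), and 990 and 989 without those of etomoxir + SB204990 + acetate (8.98% and 8.99% of all). With the set as a block 471 were called over vehicle (3.26% of all intervals), and 0 with the block after median-of-ratios scaling.

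**Figure D4:**
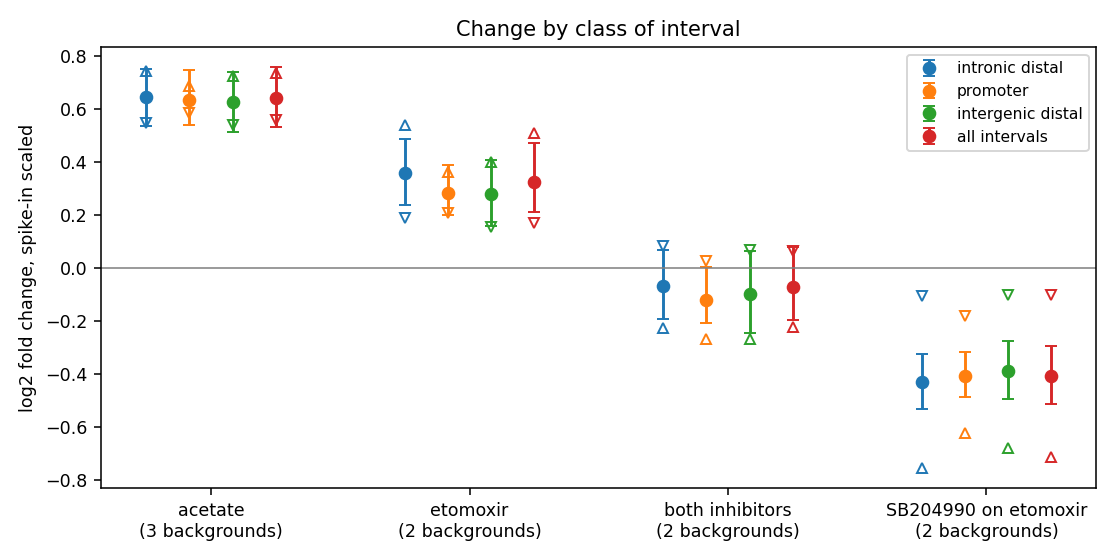
Log2 fold change of spike-in scaled reads (y axis) in 4 average comparisons (x axis) for intronic distal, promoter, intergenic distal and all tested intervals. Circles are medians with bars to the quartiles over intervals, upward triangles set 1 and downward triangles set 2; the acetate medians are 0.64 in intronic distal intervals and in all intervals, and the etomoxir medians of intronic distal intervals are 0.54 in set 1 and 0.19 in set 2.

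Named intervals for acetate were taken from called intervals averaging 50 scaled reads or more. Near Gm16555, in intron 13 of the kinesin gene Kif6 (chr17:49770363-49774560), the interval measured 52.4 and 68.1 scaled reads in vehicle, 109.3 and 130.9 in acetate, 58.9 and 67.6 in etomoxir, 152.0 and 179.5 in etomoxir + acetate, 40.2 and 72.0 in etomoxir + SB204990, and 109.3 and 123.2 in etomoxir + SB204990 + acetate. All 6 acetate libraries were above all 6 others, and the log2 fold change was 1.15 ± 0.16 (SE; limma adjusted p = 3.6e-11). Dlg2, a synaptic scaffold gene, changed by 1.15 ± 0.19, Gm4524, in the epithelial transcription factor gene Trp63, by 1.11 ± 0.17, and 4921509O07Rik by 1.10 ± 0.16. After median-of-ratios scaling these 4 had changes of 0.45 to 0.51 and none was called. Against vehicle alone, large called changes were at C4b, in an intron of the tenascin gene Tnxb (1.10 ± 0.26), at Kdm1a, in Luzp1 (0.97 ± 0.23), at Bmper, an extracellular BMP regulator (0.94 ± 0.20), and at Gm41821, in Mamdc2 (0.92 ± 0.23). The limma adjusted p of these 4 lay between 0.0215 and 0.0462. The strongest intronic distal interval, near Gm48913, changed less with acetate than the class median, by 0.29 ± 0.10.

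With etomoxir, averaged over the backgrounds with and without acetate, 88 intronic distal intervals were called higher and 0 lower (0.574%, against 0.421% of all intervals). The median change with etomoxir over the class was 0.36, against 0.33 over all intervals and 0.28 in both promoters and intergenic distal intervals. The 88 had a median length of 8104 bp and a median of 196.6 scaled reads, against 2359 bp and 38.4 for the class, and all 88 were above 0 in both sets. After median-of-ratios scaling 15 were called higher and 1 lower (0.0908% of all intervals called), and 15 of the 16 were among the 88. The class median then was 0.03. The number called depended on the libraries and on the variance model: it was 17, 30, 27 and 23 without the first vehicle, acetate, etomoxir or etomoxir + acetate library, 35, 29 and 32 without the second of the last 3, 2560 without either etomoxir + SB204990 library (10.9% of all intervals), 189 and 186 without those of etomoxir + SB204990 + acetate (1.27% and 1.26% of all), and 2 when the variance was not allowed to follow the level. Among these counts, those without a share of all intervals compare fits and show nothing particular to the class. When read shares were multiplied by the factor, 0 were called. With the set as a block 200 were called (0.853% of all intervals), and 17 with the block after median-of-ratios scaling. The class itself changed unequally between sets, by a median of 0.54 in set 1 and 0.19 in set 2. Promoters changed by 0.36 and 0.21, so the class median was above that of promoters in set 1 only. Intergenic distal intervals changed by 0.40 and 0.16. In the weakest of 4 equal parts of the class by level the medians of set 1 and set 2 were 0.67 and 0.16 and in the strongest 0.37 and 0.21.

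Among intervals called with etomoxir and averaging 50 scaled reads or more, the one near the noncoding RNA 9330188P03Rik changed most. The interval (chr14:105612762-105618499, intron 2) measured 55.2 and 57.8 scaled reads in vehicle, 67.0 and 68.9 in acetate, 160.0 and 151.7 in etomoxir, 248.0 and 225.6 in etomoxir + acetate, 116.7 and 161.0 in etomoxir + SB204990, and 172.0 and 222.9 in etomoxir + SB204990 + acetate. All 8 libraries with etomoxir were above all 4 without it. The log2 fold change was 1.62 ± 0.17 (limma adjusted p = 2.18e-16), 1.28 ± 0.11 after median-of-ratios scaling, and it was called under 23 of 24 alternatives, whose adjusted p reached 0.993 in the other. The nearest coding start, 278320 bp away, was that of Spry2, an inhibitor of receptor tyrosine kinase signalling. Lrrc6, a gene of dynein assembly in cilia (chr15:66461922-66465905, intron 4), measured 52.8 and 62.6 scaled reads in vehicle, 80.3 and 62.9 in acetate, 154.3 and 160.3 in etomoxir, 229.0 and 207.4 in etomoxir + acetate, 121.5 and 162.0 in etomoxir + SB204990, and 179.8 and 221.2 in etomoxir + SB204990 + acetate. Here too the 8 etomoxir libraries lay above the 4 others, with a change of 1.52 ± 0.17.

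A pair of neighbouring intervals in introns of Prtg, the gene of the immunoglobulin superfamily protein protogenin, both rose with etomoxir. The one assigned to Prtg (chr9:72842600-72850008) measured 105.2 and 105.4 scaled reads in vehicle, 146.7 and 143.9 in acetate, 269.2 and 239.9 in etomoxir, 451.0 and 382.1 in etomoxir + acetate, 210.7 and 224.0 in etomoxir + SB204990, and 312.4 and 363.4 in etomoxir + SB204990 + acetate. It changed by 1.39 ± 0.15 and the adjoining one, assigned to Gm27204, by 1.14 ± 0.16. Gm47357, in the histone deacetylase gene Hdac9, changed by 1.37 ± 0.21, and Cstf2t, in the cGMP-dependent kinase gene Prkg1, by 1.32 ± 0.22. Further called intervals, chosen after their values were seen, were at Mgat4c (1.29 ± 0.16), Asb4 (1.28 ± 0.15), Aldh1a1, a retinaldehyde dehydrogenase gene (1.17 ± 0.15), Nceh1, a cholesteryl ester hydrolase gene (1.10 ± 0.14), and Cep57l1, in the stress-response gene Sesn1 (1.04 ± 0.17). Each of these was also called after median-of-ratios scaling. Gm15218 was the only interval called lower on that scale, by 0.65 ± 0.12, and had 86.9 and 97.5 scaled reads in vehicle, 149.7 and 134.4 in acetate, 74.3 and 63.0 in etomoxir, 117.0 and 126.7 in etomoxir + acetate, 40.6 and 76.0 in etomoxir + SB204990, and 82.1 and 114.5 in etomoxir + SB204990 + acetate. Within each acetate state all 4 libraries with etomoxir were below both libraries without it. In the spike-in scaled fit its change was -0.32 ± 0.19 and was not called.

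Sequence matches in the 88 intervals were compared with the class as a description. The 88 were longer and had more reads than the class, so the class is not a matched control, and no difference was tested. In the central 1000 bases 45 of the 88 (51.1%) had an AP-1 match, against 38.4% of the class. Of the strongest of 4 equal parts of the class by scaled reads per kb, 42.3% had one. A TEAD match was in 48 of the 88 (54.5%), against 45.2% of the class and 44.7% of that strongest part. An E-box was in 35 of the 88 (39.8%), against 53.1% of the class. An SP/KLF match was in 5 (5.68%), against 8.06%, and an ETS match in 2 (2.27%), against 4.17%. The direct repeat of the PPAR:RXR heterodimer (GGTCANAGG), the receptor pair that fatty acids activate, was matched in 9 of the 88 windows (10.2%) and 6.5% of the class. Over whole intervals it occurred 0.658 times per 10 kb in the 88 and 0.676 times per 10 kb in the class. The 9330188P03Rik interval held 1 such match, on the minus strand and near its left edge, shown in capitals here with its flanks from chr14:105612822-105612851 on the plus strand.
9330188P03Rik repeat: gctaagttctCCTCTGACCttctctaccca

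For both inhibitors against neither, averaged with and without acetate, 19 intronic distal intervals were called higher and 43 lower (0.405%, against 0.351% of all intervals), with a class median of -0.07 and of -0.07 over all intervals. The class median was -0.23 in set 1 and 0.08 in set 2. After median-of-ratios scaling 38 were called higher and 40 lower, against 0.404% of all intervals called. Without the second etomoxir + SB204990 library, the one that stood apart, 549 were called (2.98% of all intervals), and without the first 115 (0.833% of all). The count was 202 and 23 without the second or first etomoxir + SB204990 + acetate library, between 16 and 34 without any 1 of the other 8, and 0 when the variance was not allowed to follow the level. Counts of calls given here without a share of all intervals compare fits and show nothing particular to the class. The comparison of both inhibitors shares its control libraries with that of etomoxir and its treated libraries with that of SB204990 on top of etomoxir. These averages add up by construction, so the values below describe the called intervals and test nothing. Of the 43 that fell, the median change was -0.59 with both inhibitors, -0.02 with etomoxir and -0.59 with SB204990 on top of etomoxir. The etomoxir median was -0.16 over vehicle and 0.12 over acetate. After median-of-ratios scaling the medians for both inhibitors, etomoxir and SB204990 were -0.52, -0.36 and -0.19. Of the 19 that rose these medians were 1.04, 1.17 and -0.23 with spike-in scaling, and 1.11, 0.84 and 0.18 after median-of-ratios scaling. The 9330188P03Rik, Lrrc6, Prtg and Cstf2t intervals were called higher, by 1.39 ± 0.17, 1.37 ± 0.17, 1.12 ± 0.15 and 1.199 ± 0.22.

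Gpm6b, which encodes a membrane glycoprotein of the proteolipid family, fell most (chrX:166298933-166305084, intron 1). It measured 55.6 and 77.6 scaled reads in vehicle, 109.9 and 106.0 in acetate, 58.9 and 61.3 in etomoxir, 110.0 and 107.5 in etomoxir + acetate, 22.7 and 37.0 in etomoxir + SB204990, and 51.1 and 66.8 in etomoxir + SB204990 + acetate. In each acetate state both libraries with both inhibitors were below all libraries without SB204990, while etomoxir alone overlapped with its control. The log2 fold change was -1.01 ± 0.21 (limma adjusted p = 0.0015), and -0.95 ± 0.12 after median-of-ratios scaling. Il18rap, an interleukin-18 receptor subunit gene, measured 158.5 and 203.6 scaled reads in vehicle, 258.4 and 252.4 in acetate, 151.4 and 169.5 in etomoxir, 276.0 and 281.3 in etomoxir + acetate, 77.7 and 124.0 in etomoxir + SB204990, and 119.7 and 157.0 in etomoxir + SB204990 + acetate, a change of -0.88 ± 0.16. Gm12158, in the transcription factor gene Ebf1, changed by -0.90 ± 0.20, Gm30676 by -0.87 ± 0.18, and Nox4, the gene of a hydrogen peroxide-forming NADPH oxidase, by -0.85 ± 0.22. All 5 were also called after median-of-ratios scaling and none when read shares were multiplied by the factor. Of 24 alternatives each, Il18rap was called under 22, Gpm6b and Gm30676 under 18, Gm12158 under 16 and Nox4 under 11.

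**Figure D5:**
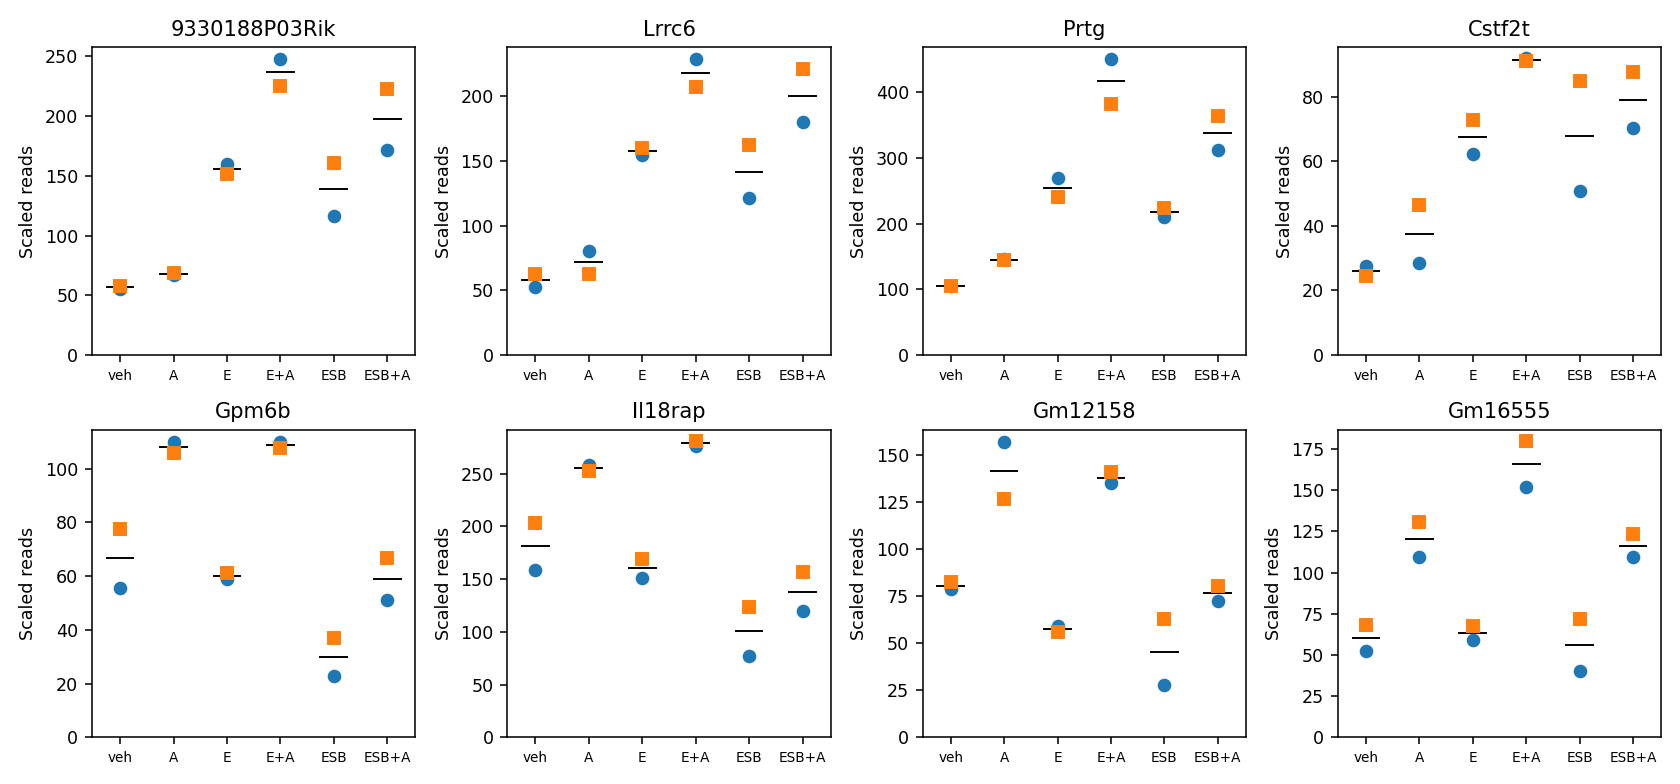
Scaled reads (y axis) in each of 12 libraries at 8 intronic distal intervals, with circles for set 1, squares for set 2 and lines for group means (n = 2; veh, vehicle; A, acetate; E, etomoxir; ESB, etomoxir + SB204990). At 9330188P03Rik, Lrrc6, Prtg and Cstf2t every library with etomoxir lies above every library without it, and at Gpm6b and Il18rap the libraries with both inhibitors lie below the others of the same acetate state.

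For SB204990 on top of etomoxir, 3094 intronic distal intervals were called, 7 higher and 3087 lower (20.2%, against 19.3% of all intervals), with a class median of -0.43 and of -0.41 over all intervals. The class median was -0.75 in set 1 and -0.11 in set 2. After median-of-ratios scaling 0 were called (0% of all intervals, 706 unadjusted). In the next sentence, a count without a share of all intervals compares fits and shows nothing particular to the class. The count was 11909 without the second etomoxir + SB204990 library (67.2% of all intervals) and 953 without the first (7.66% of all), 1832 and 1846 without an acetate library, 66 without the first etomoxir + SB204990 + acetate library, at most 12 without any 1 of the etomoxir or etomoxir + acetate libraries, and 0 when the variance was not allowed to follow the level. Among called intervals averaging 50 scaled reads or more, the largest decreases were at Gpm6b (-0.95 ± 0.21), at Nbea, a vesicle traffic gene (-0.95 ± 0.20), at the cholesterol exporter gene Abcg1 (-0.93 ± 0.16), at Sgpl1, the sphingosine phosphate lyase gene (-0.89 ± 0.23), and at Enox1 (-0.89 ± 0.20).

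Intervals nearest to the genes of 7 pathway lists were counted beside the 83.0% of the class and the 77.2% of all intervals that acetate raised; no list was tested against either. For epithelial to mesenchymal transition and matrix, 19 of 70 genes had a tested interval nearest to them, and acetate raised 36 of their 46 intervals (78.3%, against 77.2% of all intervals; median log2 fold change 0.61). Examples were Itga2, a collagen-binding integrin (0.44 ± 0.10), Fstl1, a secreted follistatin-like protein (0.60 ± 0.11), and Lama3, a laminin chain (0.39 ± 0.11). In TGF-beta and BMP signalling 40 of 55 rose (72.7%, median 0.61), including Ltbp1, which tethers latent TGF-beta to the matrix (0.54 ± 0.10), and 2 intervals of the receptor gene Acvr1 (0.61 ± 0.11 and 0.62 ± 0.11). Of the adhesion and actin list 95 of 118 rose (80.5%, median 0.66), with Cnn3, an actin-binding calponin, at 0.61 ± 0.11. Among AP-1, TEAD, RUNX and ETS factors and their partners 50 of 56 rose (89.3%, median 0.71), with the TEAD cofactor Vgll4 at 0.68 ± 0.11, Etv5 at 0.60 ± 0.11 and Bach2 at 0.77 ± 0.11. In the list of acetyl-CoA supply and histone acetylation 34 of 41 rose (82.9%, median 0.64), with the deacetylase genes Hdac1 and Hdac2 at 0.77 ± 0.12 and 0.54 ± 0.12 and the acetyltransferase gene Kat6b at 0.62 ± 0.12. Growth factor receptors and RAS-MAPK regulators had 70 of 83 (84.3%, median 0.66), with Met, the hepatocyte growth factor receptor, at 0.58 ± 0.11 and 0.64 ± 0.11 and the ERK pathway inhibitor Spred2 at 0.69 ± 0.11. None of the 7 lists had an interval called for acetate over vehicle or for the average effect after median-of-ratios scaling.

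Genes of fatty acid oxidation and PPAR targets had 30 tested intervals at 12 of 57 genes. Acetate raised 27 of them (90.0%, against 83.0% of the class and 77.2% of all intervals; median 0.61), including Acadl, a long-chain acyl-CoA dehydrogenase (0.58 ± 0.12), Acaa2, a mitochondrial thiolase (0.55 ± 0.11), and Ppargc1b, a transcriptional coactivator of mitochondrial genes (0.61 ± 0.12). With etomoxir 1 of the 30 was called (3.33%, against 0.421% of all intervals), and the list's median was 0.40 against 0.33 over all intervals. The called interval lay in Hadhb, which encodes a subunit of the mitochondrial trifunctional protein. It measured 16.4 and 23.0 scaled reads in vehicle, 24.7 and 33.6 in acetate, 45.7 and 34.4 in etomoxir, 81.0 and 46.1 in etomoxir + acetate, 27.9 and 35.0 in etomoxir + SB204990, and 44.0 and 50.3 in etomoxir + SB204990 + acetate, a change of 1.03 ± 0.26 (limma adjusted p = 0.0314). The interval overlaps an annotated noncoding transcript start. Its change was 1.55 in set 1 and 0.50 in set 2, and the interval was not called after median-of-ratios scaling. One further listed interval was called with etomoxir, in the adhesion gene Lpp (0.62 ± 0.15), and 1 after median-of-ratios scaling with both inhibitors, in the actin-binding gene Palld (-0.65 ± 0.14 on that scale). The other 5 lists had no interval called with etomoxir or with both inhibitors.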

How the data were processed

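H3K27ac ChIP-seq was performed on 4T1 cells after micrococcal nuclease digestion, with paired reads of 60 bases. The authors aligned reads to a merged human and mouse genome with the nf-core/chipseq workflow and computed scaling factors from the percentage of human spike-in, divided by the highest factor. The deposited signal values are spike-in scaled read counts per interval, and the 2 columns with a factor of 1 hold whole-number counts as deposited. In every library 100.0% of values were whole multiples of 1 factor (tolerance 0.01 reads), so reads were recovered. All 12 value columns were used. The peak caller is not given in the sources used here.

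Intervals with a mean of at least 10 were tested on log2(scaled reads + 1) with limma 3.58.1 (R 4.3.3), with an intensity trend, in 1 fit over 6 groups with no covariate, and Benjamini-Hochberg adjustment over 63903 intervals. Fold changes are on that scale, which understates those of low intervals. Class totals and ratios were compared by exact permutation within backgrounds. edgeR 4.0.16 and DESeq2 1.42.0 were run on recovered reads as alternatives, and called 12786 and 11936 intronic distal intervals for acetate. In the same order, 77.5% and 69.7% of all intervals were called. Genes and starts came from GENCODE M21, sequences from GRCm38. The limma step and the permutation test were tested on simulated data. Python 3.11.15 was used for the rest.

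The class, gene lists, motifs and tests were chosen with earlier results of these data known. Named intervals were those with the highest level, up to 5 a direction by fold change among called intervals averaging 50 or more that moved one way in both sets, for either scaling, and the 3 strongest of each gene list; all others are stated as chosen after their values were seen. Listed intervals called with an inhibitor were also named. Some items that these rules name are not reported here.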

Additional observations from a re-analysis of the deposited data

How the results depend on the processing

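The number of reads, 2 libraries a group and the single spike-in factor of each library limit the precision. The acetate effect on the summed level was 0.43 with read shares multiplied by the factor and from 0.54 to 0.73 without 1 library. Its difference from promoters was -0.031 as a median over intervals, -0.022 without the first etomoxir + SB204990 library and from -0.022 to 0.079 without 1 library. That of both inhibitors was -0.019 as a median over intervals, -0.0098 and -0.0074 without the first vehicle or acetate library, -0.055 without the second etomoxir + SB204990 library, and from -0.055 to 0.096 in all. Without 1 library the difference from promoters with etomoxir was 0.013 to 0.074, and that from intergenic intervals with acetate 0.0046 to 0.016.

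Numbers of intronic distal intervals called are given in the order average acetate, acetate over vehicle, etomoxir, both inhibitors, SB204990 (12724, 13, 88, 62 and 3094 of 15326). Of all intervals 77.2%, 0.0955%, 0.421%, 0.351% and 19.3% were called in that order. Where no share of all intervals stands beside a count below, the count compares fits and shows nothing particular to the class. They were 0, 0, 16, 78 and 0 after median-of-ratios scaling, 14, 0, 39, 176 and 0 after total-sum scaling, and 0 for all 5 with the share multiplied by the factor. With a mean of at least 50 they were 6406, 1355, 220, 91 and 4279 of only 6480 tested (99.1%, 25.6%, 2.41%, 1.53% and 69.2% of all intervals tested), with no filter 11837, 0, 33, 24 and 505 of 15518 (40.7%, 0%, 0.0981%, 0.0664% and 1.98% of all), and without an intensity trend 12591, 0, 2, 0 and 0. DESeq2 called 144 for acetate over vehicle. With only the libraries of the comparison the last 4 were 3531, 5441, 15 and 8. Without 1 library they ranged from 9825 to 14884, 0 to 3450, 17 to 2560, 16 to 549 and 0 to 11909. A pseudocount of 5 and edgeR moved none of the 5 by over 1.5 times. The largest named changes kept their direction under every alternative run.

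Nothing in the labels says that a set is a shared batch, and the set was not a term of the reported fit. Across intervals, deviations of set 1 libraries from their group means correlated by -0.15 to 0.35 (15 pairs, median -0.041). Such a correlation cannot see an offset shared by all intervals of a library, and each set has its own library with a factor of 1. It therefore does not settle whether the set belongs in the fit. With the replicate block 13260, 471, 200, 83 and 4426 were called, and with the block after median-of-ratios scaling, chosen after seeing the data, 0, 0, 17, 96 and 0.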
